A study of Drosophila melanogaster with 15 samples.

Results

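The effect of Bap60 RNAi that juvenile and mature adult males had in common was measured in nuclear RNA from the mushroom body of Drosophila melanogaster. All 15 libraries entered the comparison, 7 from Bap60-knockdown flies and 8 from flies with a hairpin against mCherry, a fluorescent protein that flies do not have. Age and genotype were fitted together in an additive model, and a gene was called when its genotype term passed an adjusted p under 0.05 and its log2 fold change had the same sign in the juvenile libraries alone and in the mature libraries alone. Of 11997 genes tested, 17 (0.142%) met these conditions, 4 higher (0.0333%) and 13 lower (0.108%) after knockdown. The split depended on scaling and tool, with 8 higher and 13 lower under upper-quartile scaling and 155 higher and 86 lower in DESeq2. DESeq2 gave no adjusted p for 6281 of the 11997 genes. Each log2 fold change is Bap60 knockdown over mCherry, and each adjusted p is from edgeR's quasi-likelihood test with Benjamini-Hochberg adjustment unless another tool is named.

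Knockdown flies carried UAS-unc84::GFP/+; R14H06-Gal4/UAS-Bap6032503, and control flies carried UAS-unc84::GFP/+;R14H06-Gal4/UAS-mCherryRNAi. Juvenile flies, sampled 0 to 3 hours after eclosion, gave 2 knockdown and 3 mCherry libraries, and mature flies, 1 to 5 days old, gave 5 of each. Every group thus shared the driver R14H06-Gal4, which makes the hairpin and a GFP-tagged nuclear envelope protein in the mushroom body, and the tag was used to capture the nuclei. Nothing in the labels tells whether libraries of 1 group came from different flies, so the p-values describe the spread between these libraries, part of which may be technical. The groups differ in their hairpin, and loss of Bap60 cannot be told apart from anything else that came with it.

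Bap60 is a core subunit of the SWI/SNF (Brahma) complex, which uses ATP to slide or evict nucleosomes and so changes which DNA is open to transcription factors. The mushroom body is the centre of olfactory learning in the fly brain, and its intrinsic neurons, the Kenyon cells, receive odour input and are modulated by dopamine and neuropeptides. Neurons take up sugars, lactate and amino acids through membrane transporters, and lactate dehydrogenase links glycolysis to lactate exchange.

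In juvenile flies, 45547974 to 53143845 reads per knockdown library and 37879789 to 45731087 per mCherry library were counted in genes. In mature flies the depth was 17447070 to 37563455 reads per knockdown library and 18173548 to 70495790 per mCherry library. The spread between replicates differed by age, with a biological coefficient of variation of 0.865 in juvenile and 0.252 in mature libraries. The sample weights of limma-voom were lower in all juvenile libraries (0.275 to 0.396) than in the mature ones (0.923 to 4.95). Juvenile mCherry library 1 had the lowest (0.275).

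The Kenyon cell genes ey, toy, dac, Mef2 and dnc were detected in every group, with group means of 287 CPM or more. Markers of 7 other cell types were measured as well, and members listed at 0 in every library were 3 of 17 for glia, 2 of 22 for cuticle and epidermis, 2 of 16 for other neurons, 2 of 21 for photoreceptors, 1 of 17 for muscle and 0 for fat body, haemocytes and Kenyon cells. In juvenile flies the summed levels of all 8 lists were separate between the groups, as were 30% of all genes tested with 2 libraries against 3. The sum of 16 Kenyon cell markers was 12300 to 12860 CPM (read counts scaled to the library total) in juvenile knockdown libraries. It was 13620 to 19470 CPM in juvenile mCherry libraries. The juvenile sums of glia, haemocytes, other neurons and photoreceptors also lay lower after knockdown. For other neurons, ple alone averaged 1237 of 2786 CPM of the sum in juvenile knockdown and 3035 of 4773 CPM in juvenile mCherry libraries. The 14 tested genes of that list had a median log2 fold change of −0.06 in juvenile flies alone, beside −0.02 over all genes tested. Juvenile means of its members went both ways, lower after knockdown for ChAT and higher for Lim3. Juvenile sums lay higher after knockdown for muscle (16850 to 20280 CPM in knockdown, 9918 to 13800 CPM in mCherry), fat body (728 to 831 CPM in knockdown, 505 to 551 CPM in mCherry) and cuticle and epidermis (1935 to 2410 CPM in knockdown, 1812 to 1914 CPM in mCherry). In mature flies the knockdown and mCherry sums of all 8 marker lists overlapped. Across both ages no list passed an exact permutation test within age adjusted over the 8 lists. In that test the smallest p was that of fat body markers (log2 difference 0.34, unadjusted p = 0.0314, adjusted p = 0.251). In mature flies apolpp alone averaged 2877 of 3253 CPM of this sum in knockdown and 2303 of 2709 CPM in mCherry libraries. The 13 fat body genes tested had a median log2 fold change of 1.01 in juvenile and −0.27 in mature flies alone. Of these, 3 had the same sign at both ages. None of the 17 called genes belongs to a marker list, and what the marker levels contribute to the results was not tested. Fewer cells of a type and less RNA per cell cannot be told apart in these bulk libraries.

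**Figure D1:**
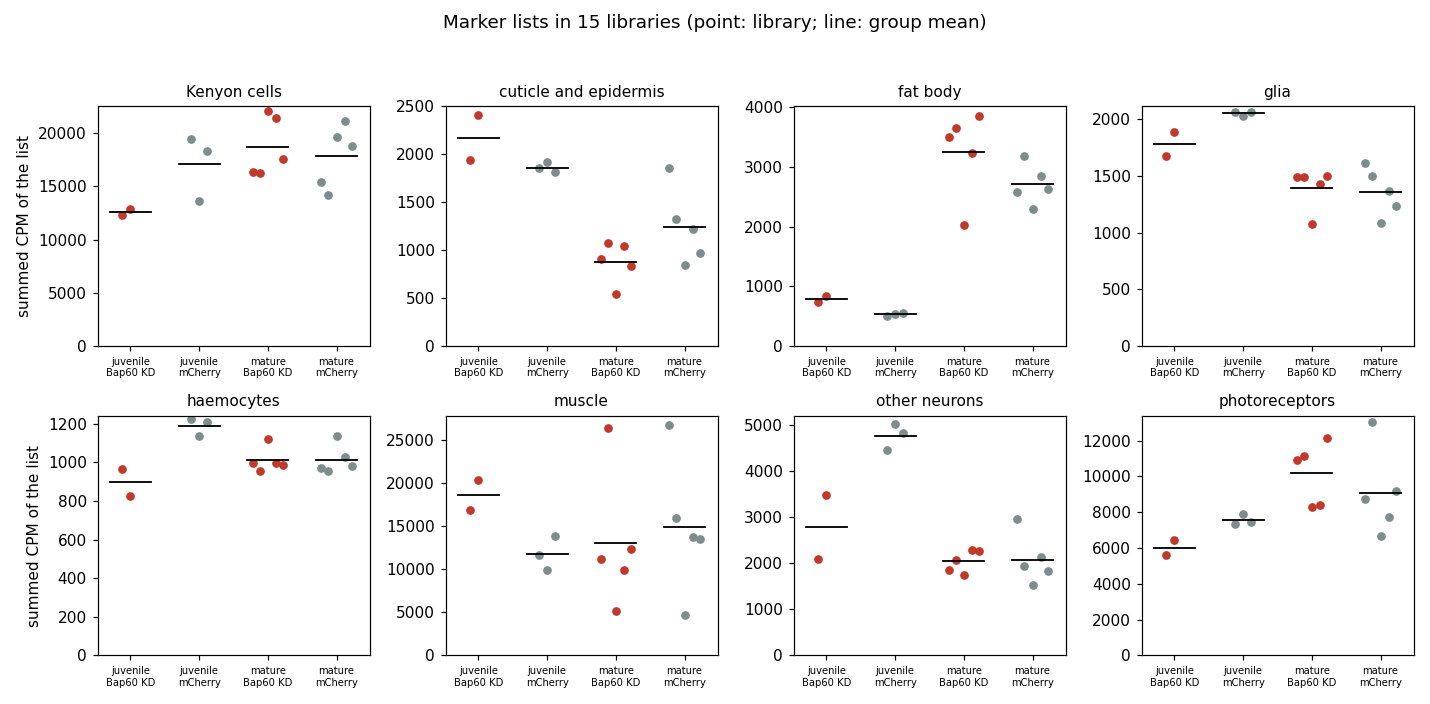
Summed CPM on the vertical axis of 8 marker lists, 1 panel each, with a point per library and a line at the group mean for juvenile knockdown, juvenile mCherry, mature knockdown and mature mCherry libraries. Juvenile groups separate in all 8 panels, with muscle, fat body and cuticle markers higher and the other 5 lower after knockdown, and mature groups overlap in every panel.

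The hairpin's target, Bap60, is gene FBgn0025463 on X (13157445 to 13159508, minus strand; all positions are on BDGP6.54). Its level was 5.03 and 7.63 CPM in juvenile knockdown libraries, against 11.8, 5.15 and 11.5 CPM in juvenile mCherry libraries. In mature flies it was 14.5, 10.8, 7.08, 12.1 and 11.6 CPM in knockdown libraries, against 21.7, 15.8, 17.6, 15.7 and 15.6 CPM in mCherry libraries. Every mature knockdown library lay below every mature mCherry library, while juvenile mCherry library 2 lay between the juvenile knockdown libraries. The age-adjusted log2 difference was −0.58, and an exact permutation within age over 2520 arrangements gave a two-sided p = 0.0147. In the additive fit over all genes the log2 fold change was −0.61 (SE 0.18) and did not pass (adjusted p = 0.217), though limma-voom with sample weights called it (adjusted p = 0.0395).

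The 17 called genes had the same sign in each age taken alone, which the pooled test already favours, so the signs are a description. So are their p-values and the separation of their groups in each age, since the same libraries picked the genes. Without adjustment 1117 genes (9.31%) had p under 0.05 for the genotype term, 504 higher and 613 lower. In the juvenile libraries alone 14 of the 17 had an unadjusted p under 0.05, against 13.6% of all genes tested, and in the mature libraries alone all 17 did, against 9.29%. The change was larger in juvenile flies for 9 genes and in mature flies for 8. In mature flies the knockdown and mCherry libraries of 14 genes did not overlap, against 1.93% of all genes tested. For 12 genes the knockdown and mCherry libraries did not overlap in either age, where 0.417% of all genes tested were so separated in the same direction. All 17 are protein coding.

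**Figure D2:**
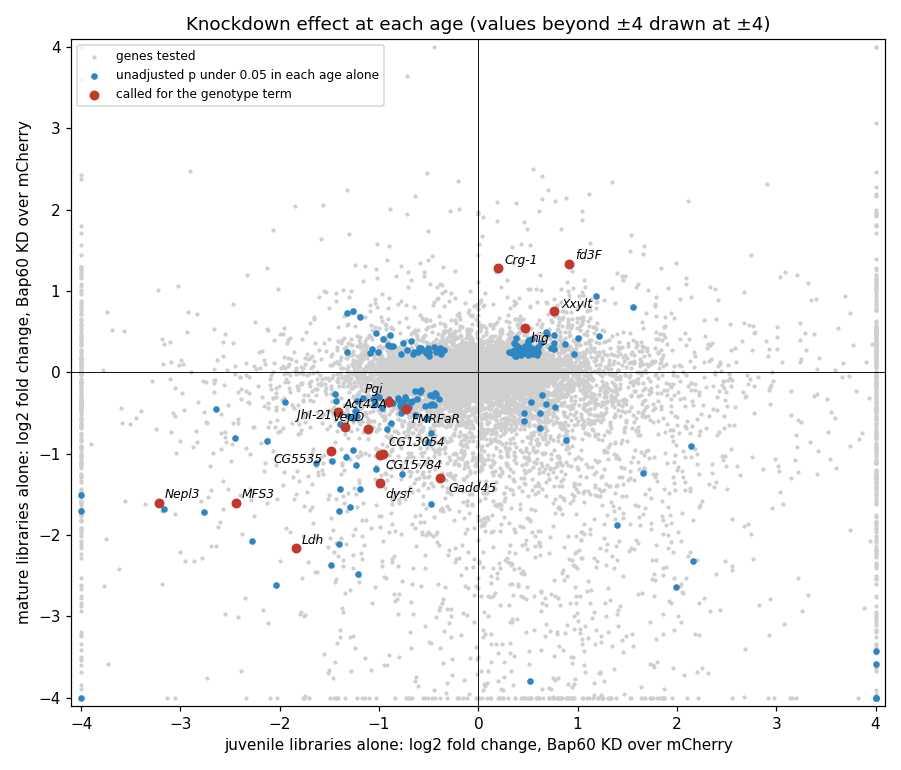
Log2 fold change of Bap60 knockdown over mCherry in juvenile libraries alone (horizontal) and in mature libraries alone (vertical), 1 point per gene tested. Red points are the 17 called genes, all in the lower left or upper right quadrant, and blue points are genes with an unadjusted p under 0.05 in each age alone.

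Genes of lactate and glucose metabolism were among the genes that fell. Ldh (FBgn0001258; 3L, 6259105 to 6262694, minus strand), which encodes the lactate dehydrogenase that turns pyruvate into lactate and back, was at 22.1 and 29.5 CPM in juvenile knockdown libraries, against 63.7, 122 and 91.2 CPM in juvenile mCherry libraries. Mature flies had 82.3, 44.7, 48.0, 60.3 and 49.5 CPM in knockdown libraries, against 344, 224, 310, 142 and 254 CPM in mCherry libraries. Each knockdown library lay below every mCherry library of its age. The shared change was a log2 fold change of −2.06 (SE 0.20, adjusted p = 2.44e-04), with −1.84 in juvenile and −2.16 in mature flies alone, and the change did not differ between ages beyond its error (adjusted p = 0.772).

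Pgi (FBgn0003074; 2R, 8910900 to 8914069, minus strand), the isomerase of glucose 6-phosphate at the start of glycolysis, fell as well. It averaged 88.1 ± 8.84 CPM (SD, n = 2) in juvenile knockdown and 164 ± 16.2 CPM (n = 3) in juvenile mCherry libraries. In mature flies it averaged 183 ± 22.2 CPM in knockdown and 236 ± 15.5 CPM in mCherry libraries (n = 5 each). The juvenile groups were separate, and the mature groups overlapped through knockdown library 2 at 222 CPM. The log2 fold change was −0.54 (SE 0.10, adjusted p = 0.0296).

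Of the 15 glycolysis and lactate genes tested, these 2 were called lower and none higher. The median log2 fold change was −0.14, beside −0.05 over all genes tested. In juvenile and mature flies alone it was −0.46 and −0.05, beside −0.02 and −0.04 over all genes tested. Before adjustment, 3 of the 15 were lower at p under 0.05, against 5.11% of all genes, the third being Gapdh2, a glyceraldehyde 3-phosphate dehydrogenase gene (log2 −0.33, SE 0.14, adjusted p = 0.453). Without mature knockdown library 2, 8 were lower (median −0.28), without mature mCherry library 1, 5 were, and in the fits without each of 6 libraries (both juvenile knockdown, juvenile mCherry 2 and 3, mature knockdown 1, mature mCherry 4), 2 were. The enolase gene Eno had a log2 fold change of −0.62 in juvenile and −0.02 in mature flies (adjusted p of the difference 0.0966), and the hexokinase gene Hex-A had −0.56 in juvenile and −0.04 in mature flies (0.259). Pfk, the phosphofructokinase gene, had −0.05 in juvenile and −0.10 in mature flies (0.944). None of 63 nuclear-encoded oxidative phosphorylation genes and none of 19 genes of pyruvate entry and the TCA cycle had an unadjusted p under 0.05. Of all genes tested 9.31% did. The medians of these 2 lists were 0.03 and 0.05.

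MFS3 (FBgn0031307; 2L, 1143201 to 1147395, plus strand) encodes a membrane transporter of the major facilitator superfamily. It was at 4.73 and 8.14 CPM in juvenile knockdown libraries, against 29.2, 39.7 and 36.1 CPM in juvenile mCherry libraries. In mature flies it was at 25.6, 10.9, 17.5, 17.5 and 14.1 CPM in knockdown libraries, against 75.5, 45.8, 60.2, 27.4 and 49.9 CPM in mCherry libraries. The groups were separate in both ages, by a narrow margin in mature flies where mCherry library 4 was low. MFS3 fell, with a log2 fold change of −1.86 (SE 0.24, adjusted p = 0.00228). It overlaps lncRNA:CR45717 on the same strand, whose own log2 fold change was −1.77 (adjusted p = 0.271), so the counts of the 2 genes are uncertain. MFS3 was the 1 called gene of 23 sugar, monocarboxylate and anion transporters tested, whose median was −0.03.

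A pair of amino acid transporter genes also fell. JhI-21 (FBgn0028425; 2L, 12051755 to 12056042, minus strand), which encodes an amino acid transporter, was at 23.2 and 24.5 CPM in juvenile knockdown libraries, against 52.0, 62.1 and 67.1 CPM in juvenile mCherry libraries. The mature values were 23.4, 13.5, 20.2, 18.2 and 17.7 CPM in knockdown libraries, against 35.0, 26.1, 36.2, 24.7 and 25.2 CPM in mCherry libraries. All knockdown libraries lay below the mCherry libraries of their age. The log2 fold change was −0.88 (SE 0.15, adjusted p = 0.0135). JhI-21 overlaps PLCXD on the other strand (log2 −1.10, adjusted p = 0.234), and reads of such a pair cannot be told apart without the strand setting of the counting.

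CG5535 (FBgn0036764; 3L, 17852624 to 17856794, minus strand), a predicted amino acid transporter gene, averaged 3.05 ± 0.95 CPM in juvenile knockdown and 8.54 ± 1.92 CPM in juvenile mCherry libraries. It averaged 7.44 ± 2.57 CPM in mature knockdown and 14.5 ± 4.50 CPM in mature mCherry libraries. The mature groups overlapped, and the log2 fold change was −1.13 (SE 0.22, adjusted p = 0.0343). Among 17 amino acid transporter genes tested, a list drawn up after the values were seen, these 2 were called and 5 had an unadjusted p under 0.05, all lower. The median of the list was −0.17, with −0.29 in juvenile and −0.01 in mature flies alone. dmGlut, which lies 17633 bases from JhI-21 on 2L, had a log2 fold change of −0.73 (SE 0.22, adjusted p = 0.233).

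Genes that charge tRNAs with amino acids lay lower without passing the adjusted test. All 16 cytosolic aminoacyl-tRNA synthetase genes tested had a negative log2 fold change, with a median of −0.40 in the additive fit, −0.32 in juvenile and −0.40 in mature flies alone, beside −0.05, −0.02 and −0.04 over all genes tested. Before adjustment 12 of the 16 were lower at p under 0.05, against 5.11% of all genes. In the ages taken alone 13 of the 16 had the same sign. CysRS, IleRS and GlnRS had small positive values in juvenile flies (0.02, 0.04 and 0.002). ThrRS and GluProRS were the 2 that were lower at an unadjusted p under 0.05 in each age, against 0.742% of all genes. ThrRS was at 9.18 ± 4.16 CPM in juvenile knockdown and 22.1 ± 5.96 CPM in juvenile mCherry libraries (log2 of the additive fit −0.78, SE 0.18, adjusted p = 0.116). GluProRS, which charges glutamate and proline, had a log2 fold change of −0.45 (SE 0.10, adjusted p = 0.102), and AspRS had −0.58 (SE 0.15, adjusted p = 0.165). edgeR called 0 of the 16, DESeq2 called 3 (ThrRS, GluProRS and AspRS), limma-voom with sample weights called 7 and limma-voom with weights by age called AspRS. The list was put together after its members' values had been seen.

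Genes of the endoplasmic reticulum chaperone, unfolded protein and integrated stress responses were described in the same way, also from a list made after the values were seen. Of 24 tested, none was called, 20 had a negative log2 fold change (median −0.20), and 10 were lower and 0 higher at an unadjusted p under 0.05, against 5.11% lower and 4.2% higher of all genes. The list's median was −0.40 in juvenile and −0.13 in mature flies alone. Hsc70-3, the BiP chaperone of the endoplasmic reticulum, had −0.56 (SE 0.13, adjusted p = 0.102). Its changes were −0.64 in juvenile and −0.53 in mature flies alone. The eIF2α kinase gene PEK had −0.42 (SE 0.10, adjusted p = 0.113), and trbl, a tribbles pseudokinase gene, had −0.45 (SE 0.10, adjusted p = 0.0884). DESeq2 and limma-voom with sample weights each called 4 members lower, namely Hsc70-3, trbl, PEK and eIF2beta. Equal weight for each age called 6 and 1 surrogate variable 5, while limma-voom with weights by age called 0 (9 lower at an unadjusted p under 0.05).

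**Figure D3:**
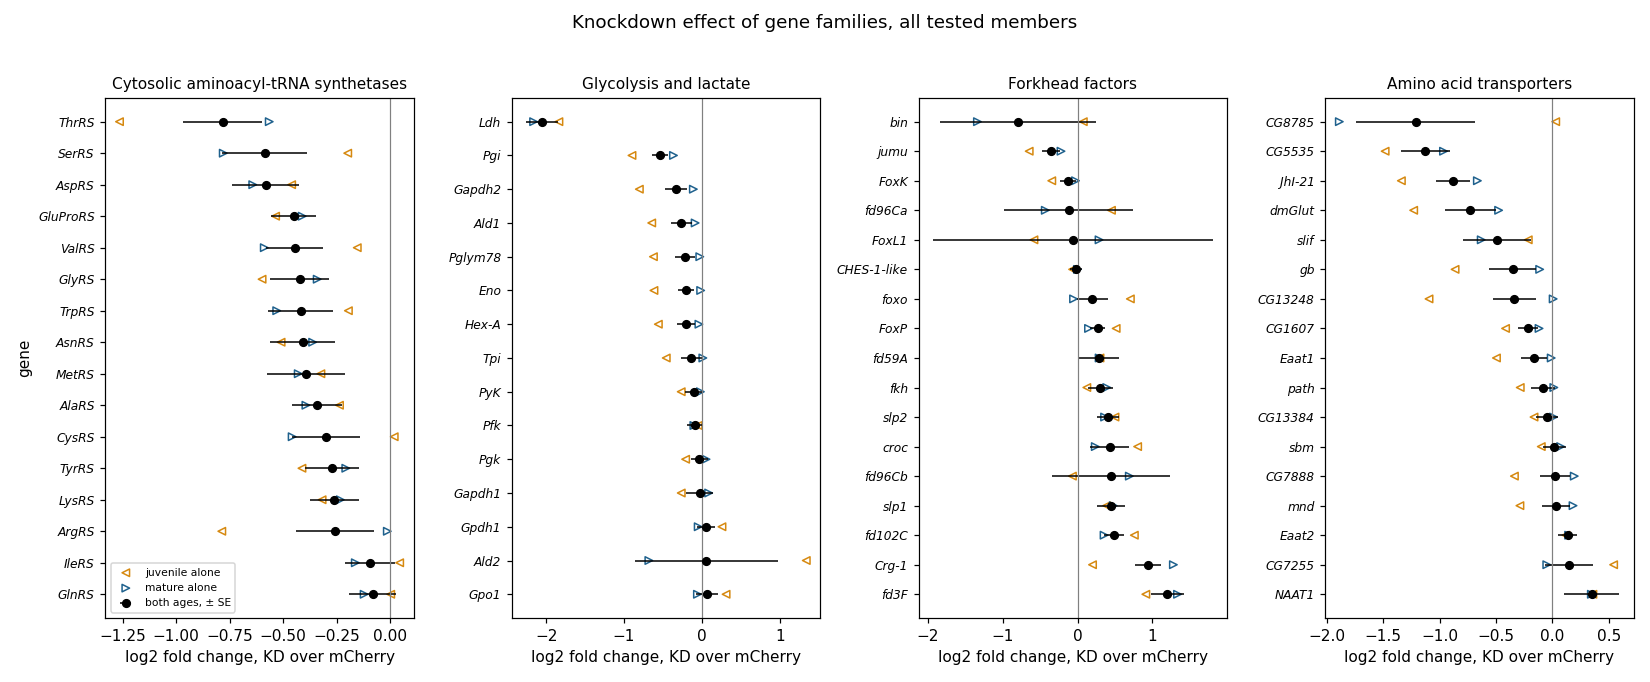
Log2 fold change of Bap60 knockdown over mCherry (horizontal) for every tested member of 4 gene groups, with the additive estimate ± SE as a black point and the juvenile and mature estimates as open triangles. All 16 aminoacyl-tRNA synthetase genes lie below 0 in the additive fit, while Ldh and Pgi stand apart among the glycolysis genes and Crg-1 and fd3F among the forkhead genes.

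Among transcription factor genes, 1 fell and 2 rose. dysf (FBgn0039411; 3R, 26076592 to 26098711, minus strand), a bHLH-PAS factor known from tracheal fusion cells, was at 18.3 and 22.7 CPM in juvenile knockdown libraries, against 42.4, 47.5 and 32.9 CPM in juvenile mCherry libraries. Mature levels were 11.8, 13.8, 10.8, 12.1 and 10.5 CPM in knockdown libraries, against 48.8, 24.6, 34.3, 17.3 and 26.6 CPM in mCherry libraries. The mature knockdown libraries lay close together and the mature mCherry libraries were spread. The log2 fold change was −1.24 (SE 0.17, adjusted p = 0.00228), and dysf was the 1 called gene of 11 bHLH-PAS genes tested, whose median was −0.02. It overlaps lncRNA:CR44319 on the same strand.

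The genes that rose were the forkhead factors Crg-1 (FBgn0021738; X, 3793223 to 3797339, plus strand), named for its circadian expression, and fd3F (FBgn0264954; X, 3802316 to 3811040, plus strand), a regulator of ciliary genes in mechanosensory neurons. They are neighbours, 4977 bases apart. Crg-1 was at 14.8 and 13.2 CPM in juvenile knockdown libraries, against 11.1, 11.99 and 13.4 CPM in juvenile mCherry libraries. In mature flies it was at 23.0, 17.5, 20.2, 14.97 and 15.9 CPM in knockdown libraries, against 7.46, 9.12, 7.43, 6.502 and 6.99 CPM in mCherry libraries. The juvenile groups overlapped and the mature groups did not. The additive log2 fold change of Crg-1 was 0.94 (SE 0.17, adjusted p = 0.0284), made of 0.20 in juvenile and 1.28 in mature flies, and the difference between ages passed its own test (1.08 higher in mature, adjusted p = 0.0450). That call held in 3 of the 15 fits without 1 library (adjusted p 0.0365 to 0.119) and was lost with RLE (0.0602) or upper-quartile scaling (0.0993), with 1 surrogate variable (0.0802), in a test against 1.2-fold (0.0964) and in limma-voom with sample weights (0.174) or weights by age (0.307).

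fd3F was at 7.36 and 5.21 CPM in juvenile knockdown libraries, against 3.52, 4.46 and 2.03 CPM in juvenile mCherry libraries. Mature flies had 6.28, 6.31, 7.17, 4.70 and 4.67 CPM in knockdown libraries, against 2.49, 2.86, 2.56, 1.17 and 2.31 CPM in mCherry libraries. Its groups were separate in both ages, with a log2 fold change of 1.203 (SE 0.23, adjusted p = 0.0304). Taken alone, the juvenile libraries gave 0.91 (SE 0.57, unadjusted p = 0.125 in edgeR) and the mature libraries 1.34 (SE 0.22). Crg-1 overlaps CR42499 on the same strand and lncRNA:CR44117 on the other, and fd3F overlaps lncRNA:CR44118 on the other strand. Of 17 forkhead genes tested, from a list made after the values were seen, these 2 were called, 6 were higher and 1 lower at an unadjusted p under 0.05 (4.2% and 5.11% of all genes), and the median was 0.29. fd102C had 0.49 (SE 0.13, adjusted p = 0.172) and FoxP, which acts in decision making in flies, had 0.27 (SE 0.10, adjusted p = 0.356).

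Xxylt (FBgn0034959; 2R, 24022343 to 24023981, plus strand), a xylosyltransferase that extends the O-glucose glycans on EGF repeats such as those of Notch, rose. It was at 85.6 and 98.1 CPM in juvenile knockdown libraries, against 45.7, 59.2 and 57.9 CPM in juvenile mCherry libraries. In mature flies it was at 105, 71.3, 75.8, 84.1 and 85.0 CPM in knockdown libraries, against 55.4, 53.6, 43.7, 45.4 and 51.6 CPM in mCherry libraries. The groups were separate in both ages and the effect was alike in size, 0.76 in juvenile and 0.75 in mature flies (additive log2 fold change 0.76, SE 0.10, adjusted p = 0.00147). No other of the 22 Notch pathway and glycosylation genes tested had an unadjusted p under 0.05, where 9.31% of all genes did. The median of the list was −0.01.

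A synaptic cleft gene and a neuropeptide receptor gene were also called. hig (FBgn0010114; 2R, 9227785 to 9247249, minus strand), which encodes a secreted protein of the synaptic cleft, averaged 505 ± 46.0 CPM in juvenile knockdown and 365 ± 25.4 CPM in juvenile mCherry libraries. It averaged 325 ± 21.3 CPM in mature knockdown and 223 ± 45.2 CPM in mature mCherry libraries. The groups were separate in both ages and hig rose by a log2 fold change of 0.52 (SE 0.10, adjusted p = 0.0343). It overlaps Cyp4p1, Cyp4p2 and Cyp4p3 on the other strand.

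FMRFaR (FBgn0035385; 3L, 3001716 to 3011860, plus strand), the receptor of FMRFamide peptides, was at 24.4 and 24.6 CPM in juvenile knockdown libraries, against 38.1, 43.8 and 40.1 CPM in juvenile mCherry libraries. The mature values were 35.8, 35.6, 32.5, 33.0 and 31.8 CPM in knockdown libraries, against 50.2, 39.2, 54.8, 37.5 and 49.0 CPM in mCherry libraries. The groups were separate in both ages, with a log2 fold change of −0.54 (SE 0.10, adjusted p = 0.0296). Nepl3 (FBgn0031678; 2L, 5055982 to 5058248, minus strand), a neprilysin-like peptidase gene, was at 0.27 and 0.45 CPM in juvenile knockdown libraries, against 4.28, 3.05 and 2.89 CPM in juvenile mCherry libraries. In mature flies Nepl3 was at 1.60, 1.52, 1.00, 1.22 and 1.39 CPM in knockdown libraries, against 4.55, 3.96, 4.88, 2.22 and 4.62 CPM in mCherry libraries. Nepl3 fell, with a log2 fold change of −2.07 (SE 0.32, adjusted p = 0.00663) and lies on the other strand from His3.3A (log2 −0.17, adjusted p = 0.736).

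Neurotransmitter receptor, ion channel and axon guidance genes held no called member. Of 37 receptor genes tested, 9 were higher and 0 lower at an unadjusted p under 0.05, against 4.2% higher and 5.11% lower of all genes (median 0.06), among them the serotonin receptor gene 5-HT2B (log2 0.37, SE 0.11, adjusted p = 0.216) and GABA-B-R3 (log2 0.34, SE 0.10, adjusted p = 0.230). Of 29 voltage-gated and leak channel genes, 5 were higher and 0 lower (median 0.08), and the potassium channel gene eag had 0.28 (SE 0.08, adjusted p = 0.206). Of 39 axon guidance and adhesion genes, 9 were higher and 1 lower (median 0.08), with the guidance ligand gene sli at 0.35 (SE 0.09, adjusted p = 0.162). No median of the 3 lists had the same sign in both ages, with −0.19 in juvenile and 0.13 in mature flies alone for receptors, −0.03 in juvenile and 0.13 in mature flies for channels, and −0.02 in juvenile and 0.09 in mature flies for axon guidance. Without juvenile knockdown library 1 the members higher were 4 receptors, 2 channels and 5 axon guidance genes, and without mature mCherry library 3 they were 6, 2 and 5 of the same lists. Over all fits without 1 library they were 4 to 11 receptors, 2 to 7 channels and 5 to 11 axon guidance genes, and the receptor median lay between 0.00449 and 0.11.

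Gadd45 (FBgn0033153; 2R, 7249161 to 7250655, plus strand), a growth arrest and DNA damage inducible gene, was at 37.3 and 25.0 CPM in juvenile knockdown libraries, against 24.9, 40.1 and 56.7 CPM in juvenile mCherry libraries. Mature levels were 19.9, 16.9, 15.7, 16.1 and 14.2 CPM in knockdown libraries, against 42.4, 37.9, 44.3, 42.0 and 37.2 CPM in mCherry libraries. The juvenile groups overlapped and the mature groups did not. Gadd45 fell, with a log2 fold change of −0.99 (SE 0.18, adjusted p = 0.0225), with −0.38 in juvenile and −1.30 in mature flies alone, and the test of that difference did not pass (adjusted p = 0.131). It was the 1 called gene of 25 stress response and DNA damage genes, whose median was −0.11.

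Act42A (FBgn0000043; 2R, 6013910 to 6015689, minus strand), a cytoplasmic actin gene, was at 52.99 and 47.8 CPM in juvenile knockdown libraries, against 133, 132 and 139 CPM in juvenile mCherry libraries. In mature flies it was at 25.9, 22.2, 24.8, 21.4 and 20.4 CPM in knockdown libraries, against 33.3, 29.0, 38.4, 29.9 and 30.4 CPM in mCherry libraries. The groups were separate in both ages. Act42A fell, with a log2 fold change of −0.79 (SE 0.14, adjusted p = 0.0166), more in juvenile (−1.42) than in mature flies (−0.49), and the difference between ages passed (0.93, adjusted p = 0.0193). It did not pass without juvenile knockdown library 1 (0.053) or 2 (0.0664), with upper-quartile scaling (0.0576), in a test against 1.2-fold (0.0574) or in limma-voom with sample weights (0.155) or weights by age (0.273). Actin genes are near-identical copies, so their counts are uncertain. Of 6 actin genes, a list made after the values were seen, Act42A was the 1 called, and Act5C, the other cytoplasmic actin gene, had −0.38 (SE 0.13, adjusted p = 0.305).

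Heat shock and caspase pathway genes held no called member. All 16 heat shock genes tested had a negative log2 fold change (median −0.61), and 3 were lower at an unadjusted p under 0.05, against 5.11% of all genes. Without mature knockdown library 3, 11 were lower (median −1.26), and without juvenile knockdown library 1, juvenile mCherry library 3 or mature mCherry library 2, 2 were, with a median of −0.36 without the last. Hsp70Bb, one of several near-identical Hsp70 copies, was at 143 ± 24.7 CPM in juvenile knockdown and 784 ± 147 CPM in juvenile mCherry libraries. Its mature means were 203 CPM in knockdown and 355 CPM in mCherry libraries. The additive log2 fold change was −1.30 (SE 0.29, adjusted p = 0.137), with −2.45 in juvenile and −0.81 in mature flies alone. The difference between ages passed in edgeR (1.64, adjusted p = 0.0460). It did not with RLE (0.0587) or upper-quartile scaling (0.106), or in limma-voom with weights by age (0.340). The median of the list was −0.18 in juvenile and −0.96 in mature flies alone, and Hsp68, stv, Hsp27 and Hsp70Ba had positive juvenile values, that of Hsp70Ba being 1.43 (unadjusted p = 0.0217). Of 11 caspase pathway genes, a list made after the values were seen, the pro-apoptotic gene hid (log2 −1.24, adjusted p = 0.216), Dronc (−1.23, adjusted p = 0.383) and Drice (−0.45, adjusted p = 0.169) were lower at an unadjusted p under 0.05.

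The remaining called genes were CG15784, CG13054 and VepD, all lower. CG15784 (FBgn0029766; X, 5429571 to 5432526, plus strand) averaged 19.1 ± 0.79 CPM in juvenile knockdown and 37.99 ± 8.13 CPM in juvenile mCherry libraries. It averaged 22.1 ± 3.47 CPM in mature knockdown and 44.7 ± 14.9 CPM in mature mCherry libraries (log2 −1.01, SE 0.15, adjusted p = 0.00533). CG13054 (FBgn0036584; 3L, 16255852 to 16257191, minus strand) averaged 6.04 ± 0.07 CPM in juvenile knockdown and 11.8 ± 4.11 CPM in juvenile mCherry libraries, with a log2 fold change of −0.99 (SE 0.17, adjusted p = 0.0166). The groups of both genes were separate in each age. VepD (FBgn0053200; 2R, 22408525 to 22409342, plus strand) had a log2 fold change of −0.83 (SE 0.17) and stood at the threshold (adjusted p = 0.04996). It overlaps CG6044 on the same strand (log2 −0.18, adjusted p = 0.752) and qkr58E-3 on the other (log2 0.20, adjusted p = 0.656). CG15784, CG13054, CG5535 and Nepl3 fall outside the naming rule and were named after their values were seen.

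**Figure D4:**
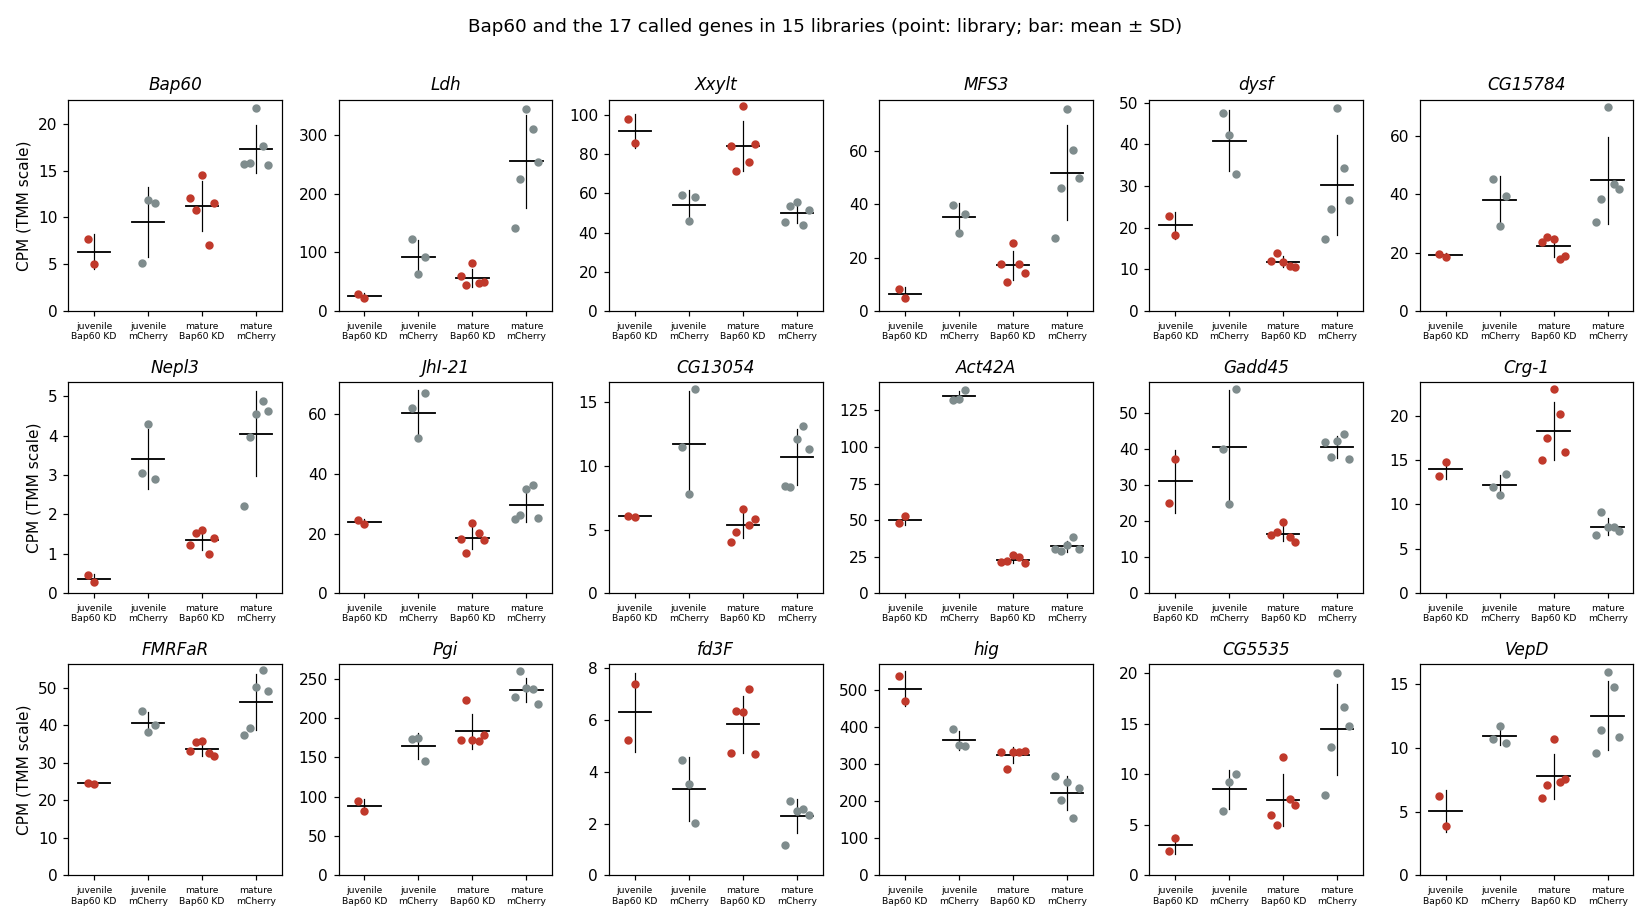
CPM (vertical, starting at 0) of Bap60 and the 17 called genes, 1 panel per gene, with a point per library and a bar at the mean ± SD for juvenile knockdown, juvenile mCherry, mature knockdown and mature mCherry libraries. For 12 called genes the knockdown and mCherry points do not overlap at either age, and Gadd45 and Crg-1 separate in mature flies alone.

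The threshold fell within a run of genes with similar p. Just outside it, 8 genes shared an adjusted p of 0.0519. The octopamine and tyramine receptor gene Oct-TyrR had a log2 fold change of 0.40 (SE 0.08) and CG43428 one of 1.02 (SE 0.21), and the other 6 were lower. Among these, the POU factor gene nub had −2.12 (SE 0.40) and NimA, of the Nimrod family, had −1.15 (SE 0.24). The genes just inside were VepD, CG5535 and hig.

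A stricter question is whether a gene differed in each age by itself. The larger of the 2 ages' p-values, adjusted over all genes, was under 0.05 for 0 genes in edgeR, for 2 in DESeq2 (Ldh and MFS3) and for 1 in each limma-voom fit (Ldh). Without adjustment 147 genes (1.23%) had p under 0.05 in both ages and the same sign, 58 higher (0.483%) and 89 lower (0.742%). The 2 ages share no library. Of the 201 genes with p under 0.05 in each age, 147 (73.1%) agreed in sign, and of the 30 with p under 0.01 in each age, 23 (76.7%) did, 20 of them lower and 3 higher after knockdown. Over all 11997 genes 50.5% agreed in sign, and the effects of the 2 ages had a Pearson's r of −0.06 and a Spearman's rho of −0.02 across these genes, which are not independent replicates.

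The effect differed between ages for 186 genes (1.55%). Called separately, the juvenile libraries gave 391 genes (3.26%) and the mature libraries 14 (0.117%). Of the 17 genes called for the shared effect, 8 were called in the juvenile libraries alone, 8 in the mature libraries alone and 3 in each, which are Ldh, Xxylt and dysf. Act42A and Crg-1 were the 2 of the 17 whose effect also differed between ages.

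Among the 147 genes and the called genes, 9 pairs lay within 20000 bases of each other, and the share over all genes was not computed. In 7 pairs both genes had the same sign, and PEK (log2 −0.42) with Hcs (0.35) and CG43689 (0.34) with cib (−0.63) had opposite signs. Besides Crg-1 with fd3F and dmGlut with JhI-21, the cuticle protein genes Cpr76Bc (log2 −0.89) and Cpr76Bd (−0.75) lay 5471 bases apart on 3L, and CG13082 (−0.54) and the autophagy adaptor gene ref(2)P (−0.43) 2728 bases apart on 2L. The 17 called genes lay on X (3), 2L (3), 2R (6), 3L (4) and 3R (1), where 14.8%, 18.8%, 20.2%, 19.7% and 25.3% of the tested genes lie. Their median length was 3590 bases and their median level 31.3 CPM, beside 2356 bases and 7.30 CPM over all genes tested.

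No chromatin remodelling gene was called, the target included. Of 11 SWI/SNF subunit genes tested, Bap60 was the 1 with an unadjusted p under 0.05, and the median was −0.09. That median was −0.27 in juvenile and 0.02 in mature flies alone. The ATPase gene brm had a log2 fold change of 0.02 (SE 0.08), mor had 0.02 (SE 0.11), osa, which marks the BAP form, had 0.08 (SE 0.09), and Bap170 and polybromo, of the PBAP form, had −0.16 (SE 0.11) and −0.15 (SE 0.11). None of 21 other remodeller genes had an unadjusted p under 0.05, and 1 higher and 2 lower of 27 Polycomb and trithorax group genes did. Over all genes tested 0.142% were called, and 4.2% were higher and 5.11% lower at an unadjusted p under 0.05. Lists of this size would thus hold few such genes at the shares of all genes. Of 76 cytosolic ribosomal protein genes, none was called and 1 was lower before adjustment, with a median of −0.10, −0.34 in juvenile and 0.03 in mature flies alone.

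The other lists held no called gene but Crg-1, and their counts at an unadjusted p under 0.05 stand against 4.2% higher and 5.11% lower of all genes. Of 14 activity-regulated genes 4 were lower and 0 higher (median −0.13), led by the nuclear receptor gene Hr38 (log2 −0.49, SE 0.13, adjusted p = 0.162), but 1 was lower without juvenile knockdown library 1, and 2 were without juvenile knockdown library 2 or mature mCherry library 3. Of 24 neuropeptide genes 5 were higher and 1 lower (median 0.14, with −0.21 in juvenile and 0.28 in mature flies alone). Among them the tachykinin gene Tk had 0.48 (SE 0.11, adjusted p = 0.109). Learning and memory genes (1 of 27 higher, 0 lower) and synaptic vesicle and active zone genes (1 of 30 higher, 1 lower) had medians of −0.03 and 0.01. In juvenile and mature flies alone the medians were −0.22 and 0.07 for learning and memory, and −0.31 and 0.13 for synaptic vesicle genes. Of 29 antimicrobial and immune genes 4 were higher and 1 lower (median 0.23), with the NF-κB factor gene dl at −0.37 (SE 0.11, adjusted p = 0.216). Of 16 circadian clock genes, which include Crg-1 as the 1 called member, 2 were higher and 0 lower (median 0.04). Their medians in juvenile and mature flies alone were −0.05 and 0.09. Kenyon cell transcription factor genes (2 of 18 higher, 0 lower), genes of the ecdysone response and neuronal remodelling (3 of 21 higher, 1 lower) and neuroblast and cell cycle genes (1 of 26 higher, 1 lower) had medians of −0.11, 0.01 and −0.15. Taken alone, the juvenile libraries gave −0.36, 0.02 and 0.004 and the mature libraries 0.06, 0.04 and −0.28, in the same order. Of 15 cell death genes 3 were lower and 0 higher (median −0.14), and these were hid, Dronc and Drice, the 3 already given for the caspase pathway.

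Ldh, Xxylt, MFS3, dysf, CG15784 and Nepl3 kept their calls with any of the 15 libraries left out. JhI-21, CG13054 and Act42A kept theirs in 13 of the 15 fits, Gadd45 in 8, Crg-1 in 7, Pgi in 6, FMRFaR, fd3F and hig in 5, CG5535 in 3 and VepD in 2. Leaving out mature mCherry library 3 ended 11 calls (adjusted p up to 0.132), and mature knockdown library 3 ended 9 (0.0896). Juvenile knockdown libraries 1 and 2 ended 8 (0.118) and 6 (0.0907), juvenile mCherry libraries 1, 2 and 3 ended 2 (0.0627), 3 (0.0852) and 7 (0.0977), mature knockdown libraries 2, 4 and 5 ended 6 (0.106), 8 (0.0873) and 8 (0.114), and mature mCherry libraries 1, 2 and 5 ended 5 (0.09), 6 (0.0827) and 6 (0.061). Mature knockdown library 1 and mature mCherry library 4 ended none. In no setting did 1 of the 17 change sign. In limma-voom with 1 weight per age, which allows for the wider juvenile spread, all 17 stayed called among 35 genes. All 35 had the same sign in each age in that method's own fits, and in the edgeR fits to each age CG4752 was the 1 exception (log2 −0.02 in juvenile and 0.82 in mature flies). The 18 further genes included nub, Tk, AspRS and BomBc1, an immune-induced peptide gene, and 12 of the 18 were lower.

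**Figure D5:**
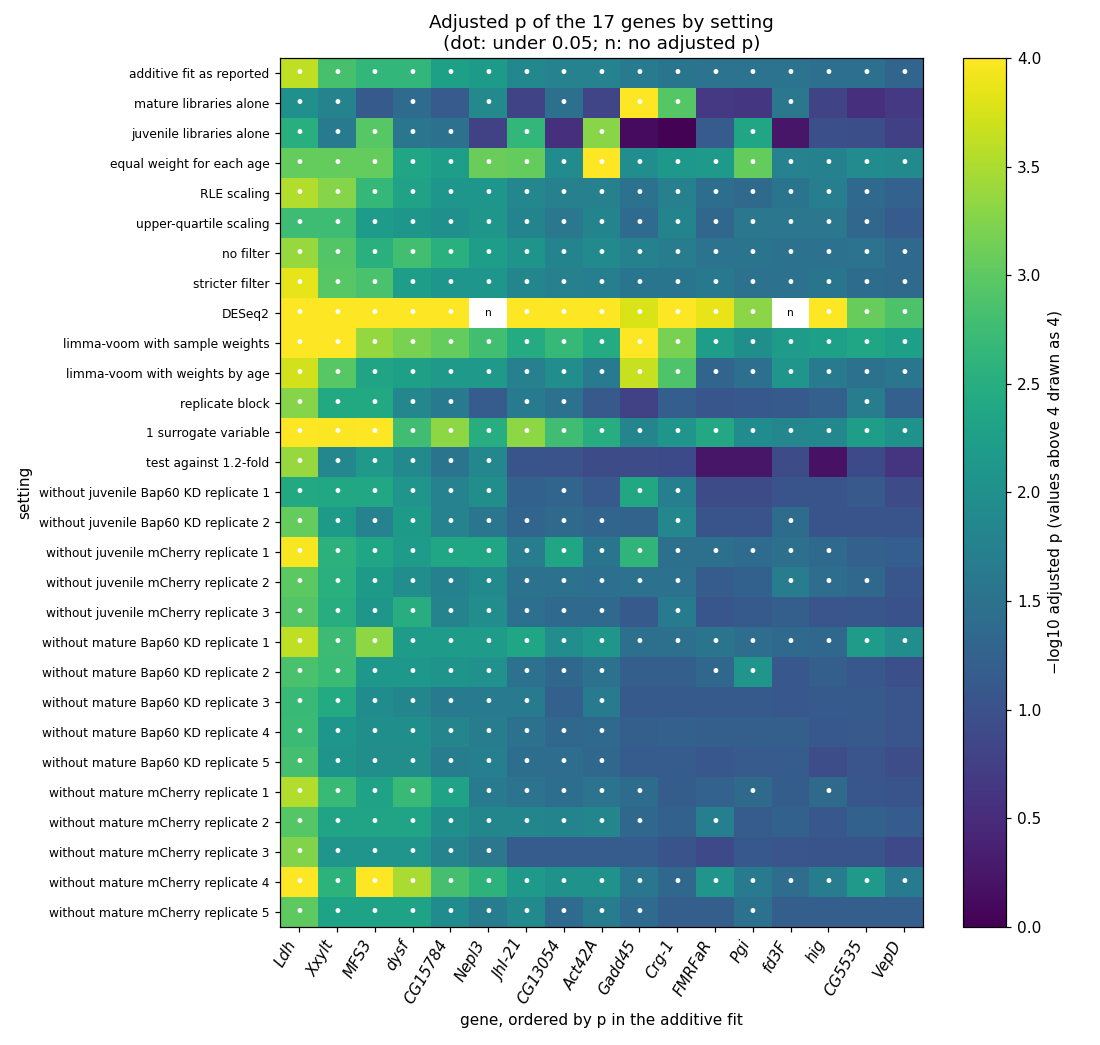
Adjusted p as −log10 (colour, values above 4 drawn as 4) of the 17 called genes (horizontal, ordered by p) under each setting (vertical), where a dot marks an adjusted p under 0.05 and n a gene with no adjusted p. Ldh, Xxylt and dysf have a dot in every row, and the genes on the right lose theirs in many fits that leave out 1 library.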

How the data were processed

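Each deposited file gives raw read counts by gene, whole numbers that the authors did not scale. Per the submitters' processing notes, STAR 2.5.3a, the BDGP6 build and HTSeq 0.7.1 were used. Not given in the sources used here: strandedness of the counting, its overlap mode, and the release of the gene models. Symbols and positions came from annotation release 115 on BDGP6.54, which named 17253 of 17559 gene IDs. Entries for reads outside genes (1.12% to 2.84% of counts), ambiguous reads (7.08% to 7.75%) and the UNC84 tag, listed in the 10 mature files alone, stayed out of library sizes and tests. Replicates were distinct libraries (chi-square over degrees of freedom of at least 14.8 for every pair).

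edgeR 4.0.16 in R 4.3.3 kept 11997 genes (filterByExpr, minimum count 10, minimum total 15), scaled by TMM and fitted age and genotype with robust quasi-likelihood dispersions, called at an adjusted p under 0.05. Signs came from fits to each age alone with the same library sizes. For a call in both ages, the larger p of the 2 fits was adjusted. Single values were tested with two-sided exact permutation tests within age on log2(CPM + 0.5). CPM are on the TMM scale. The procedure was tested on simulated data.

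Named genes were Bap60 and called genes with a mean of 5 CPM in a group: the 12 largest and smallest changes with a proper name, and up to 3 members of each list. The genes, the 33 lists and the tests were chosen with earlier results of these data known, and 6 further lists after the values were seen. Lists are described by counts and medians, with no test. Alternatives were scaling by RLE or by the upper quartile, testing without a filter, a stricter filter (mean count 10 and 1 CPM in 5 libraries), DESeq2 1.42.0, limma 3.58.1 voom with sample weights or weights by age, a replicate block, 1 surrogate variable (sva 3.50.0), a test against 1.2-fold, an adjusted p under 0.01, equal weight for each age, each age alone, and leaving out each library. Counting error is small for genes with many reads, where the number of libraries limits the precision. It is larger for low counts, such as those of Nepl3 (12 and 25 reads in juvenile knockdown libraries 1 and 2).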

Additional observations from a re-analysis of the deposited data

Results flagged for a closer look

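In mature knockdown flies, library 2 stood apart from the other 4 for 2 called genes. Pgi was at 222 CPM (222.5) in it and at 171.2 to 178.5 CPM in the others, and hig was at 287 CPM (287.1) in it and at 333 to 337 CPM in the others. With 36 groups tested in this way, 2 such values were found, and chance gives about 1 in 20. Without that library Pgi had an adjusted p of 0.00818 and hig one of 0.0625 in edgeR.

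The effect of the knockdown differed between ages for 2 called genes. Act42A differed by 0.93 (0.926) on the log2 scale, mature minus juvenile, being lower at both ages and more so in juvenile flies (edgeR adjusted p = 0.0193). Crg-1 differed by 1.08 (adjusted p = 0.0450), with a log2 fold change of 1.28 in mature flies and of 0.20 in juvenile flies, which did not pass (edgeR adjusted p = 0.964). In limma-voom with weights by age neither difference passed (adjusted p = 0.273 for Act42A and 0.307 for Crg-1). No explanation of these values was tested.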

How the results depend on the processing

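The number of genes called for the shared effect, 17 in edgeR, and the number of those with the same sign in each age, also 17, moved together in most settings. Both were 6 at an adjusted p under 0.01 and 6 in a test against a 1.2-fold change, 91 with 1 surrogate variable and 35 in limma-voom with weights by age. They were 241 and 240 in DESeq2, 134 and 123 in limma-voom with sample weights, 371 and 319 with equal weight for each age, and 391 and 221 in the juvenile libraries alone. DESeq2 gave no adjusted p for 6281 genes, so its counts rest on a smaller set, and 15 of the 17 genes stayed called in it. Leaving out 1 library gave 6 (without mature mCherry 3) to 31 (without mature knockdown 1) for both counts, with 30 without mature mCherry 4, 8 without mature knockdown 3, 9 without mature knockdown 5, 10 without mature knockdown 4, juvenile knockdown 1 or juvenile mCherry 3, and 11 without mature knockdown 2. A fit without a juvenile knockdown library leaves 1, which is assumed to vary like the rest. RLE scaling gave 17, upper-quartile scaling 21, no filter 23 and the stricter filter 19.

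Genes whose effect differed between ages numbered 186 in edgeR and 21 at an adjusted p under 0.01, 102 with upper-quartile scaling, 67 in a test against 1.2-fold, 550 in DESeq2, 7 in limma-voom with sample weights and 0 with weights by age (1405 at an unadjusted p under 0.05), with 91 to 457 when 1 library was left out. Genes called in both ages numbered 0 in edgeR in every fit that left out 1 library, 2 in DESeq2, and, in settings added after the data had been seen, 1 in each limma-voom fit. Bap60 passed in limma-voom with sample weights alone (log2 −0.60, adjusted p = 0.0395).

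Whether the replicate numbers pair the samples was not settled. In their deviations from the group mean, same-numbered juvenile libraries correlated at −0.0313 and 0.013. Same-numbered mature ones correlated at 0.275, 0.00663, 0.072, −0.00331 and 0.065. Differently numbered mature libraries correlated at −0.213 to 0.228, below the 0.275 of the pair numbered 1. The juvenile knockdown libraries deviate by equal and opposite amounts, so the juvenile values cannot decide it. With the replicate number as a block, edgeR called 14 genes for the shared effect, 8 of the 17 among them, 487 for the difference between ages and 1 (nub) in both ages, the last added after the data had been seen.

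Summed marker levels of 3 lists, none of which passed, changed sign in some fits that left out 1 library. The log2 difference lay between −0.0961 and 0.0136 for glia, between −0.13 and 0.29 for muscle and between −0.0616 and 0.0942 for photoreceptors.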

Other observations

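Reads of the UNC84 nuclear tag were listed for the 10 mature libraries. As CPM on the TMM scale they came to 9020, 4606, 6934, 5937 and 5592 in mature knockdown libraries, against 14750, 7961, 13760, 7119 and 9124 in mature mCherry libraries. The knockdown mean was 6420 ± 1680 and the mCherry mean 10500 ± 3480 (SD, n = 5 each), a log2 difference of −0.69 (two-sided exact permutation p = 0.0317 over 252 arrangements), and the groups overlapped. The part of the tag level in the results above was not tested.

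Among the 18 further genes called by limma-voom with weights by age, lncRNA:CR43753 was at 1.79 ± 1.27 CPM in juvenile knockdown and 2.44 ± 0.92 CPM in juvenile mCherry libraries, and at 0.23 ± 0.23 CPM in mature knockdown and 3.37 ± 0.91 CPM in mature mCherry libraries. The ferredoxin gene Fdx1 was at 2.43 ± 0.47 CPM in juvenile knockdown and 3.88 ± 0.29 CPM in juvenile mCherry libraries, and at 2.63 ± 0.80 CPM in mature knockdown and 5.62 ± 1.28 CPM in mature mCherry libraries. BomBc1 was at 1.90 ± 0.78 CPM in juvenile knockdown and 0.92 ± 0.75 CPM in juvenile mCherry libraries, and at 8.58 ± 0.94 CPM in mature knockdown and 4.29 ± 1.72 CPM in mature mCherry libraries. These 3 genes were chosen after their values were seen, and their edgeR adjusted p-values were 0.160, 0.102 and 0.165.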
